A study of Caenorhabditis elegans with 2 samples.

Results

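Wnt signalling steers the neuroblasts of the Q lineage and other migrating neurons of Caenorhabditis elegans, and 10 genes of that pathway are described here: egl-20, lin-44, mig-14, lin-17, mig-1, mom-5, cam-1, mig-5, bar-1 and pop-1. The data are ChIP-seq peak lists for VAB-15, a homeodomain protein of the Msx class, made by recovering chromatin with an anti-GFP antibody. A region was counted for a gene when its summit, the base of highest signal, lay inside the annotated gene or within 5000 bp upstream of the gene's start, a span called the window here. The rule used positions only, and no measured value. By it, 63 of the 30000 regions in the pooled list belonged to these genes, along with 59 of 30000 regions in replicate 1 and 56 of 30000 in replicate 2.

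There was 1 group of 2 biological replicates, so no genotype, treatment or time was compared and no test between groups exists. Both replicates were whole larvae of strain XIL99, mixed in sex, held at the L1 stage by starvation following bleaching. They carried a CRISPR insertion at vab-15 that adds GFP and FLAG to the C-terminal end of the protein, and all worms came from that single strain. Chromatin was pooled over the whole animal, so binding in few cells and weak binding in many cells cannot be told apart, and the migrating neuroblasts were not isolated. Sequencing depth is unknown, since the lists hold no read counts. The pooled list was derived from the alignments of both replicates, and 990 of its regions form the authors' optimal set, which passed their irreproducible discovery rate (IDR) procedure. The rest of each list includes background by design.

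In this pathway, a secreted Wnt is carried to the cell surface with the help of the Wntless protein, encoded by mig-14. It binds a Frizzled receptor such as LIN-17, MIG-1 or MOM-5, or the Ror receptor tyrosine kinase CAM-1. Dishevelled proteins such as MIG-5 pass the signal on, the beta-catenin BAR-1 is stabilised, and together with the TCF factor POP-1 it switches on target genes. In the left Q neuroblast, EGL-20 acts through this route to turn on the Hox gene mab-5, which keeps the descendants of that cell moving to the rear.

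The bases under the strongest pooled regions of mig-5, mig-14, cam-1 and bar-1 are shown as examples, each being the first by signal in its gene's window and clear of annotated UTRs. Sequence of the other members is not shown here. Each run is read from the plus strand of ce11, centred on the summit, from the RefSeq genome of that assembly. Capitals mark the 11 bases at the summit in mig-5, cam-1 and bar-1, and the repeated hexamer TTGCCG or its reverse complement CGGCAA in mig-14. The runs lie at chrII:8185129-8185279 (mig-5), chrII:13747373-13747523 (mig-14), chrII:9306965-9307115 (cam-1) and chrX:7173447-7173597 (bar-1).
mig-5: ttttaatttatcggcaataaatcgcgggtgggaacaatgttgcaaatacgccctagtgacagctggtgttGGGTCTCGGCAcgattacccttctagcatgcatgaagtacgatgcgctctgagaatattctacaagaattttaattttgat
mig-14: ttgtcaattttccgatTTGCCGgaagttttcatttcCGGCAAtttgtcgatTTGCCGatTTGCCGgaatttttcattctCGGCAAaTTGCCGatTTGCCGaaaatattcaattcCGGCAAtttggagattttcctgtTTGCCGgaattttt
cam-1: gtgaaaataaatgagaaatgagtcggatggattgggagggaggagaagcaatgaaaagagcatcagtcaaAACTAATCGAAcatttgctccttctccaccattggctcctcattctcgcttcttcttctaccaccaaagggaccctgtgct
bar-1: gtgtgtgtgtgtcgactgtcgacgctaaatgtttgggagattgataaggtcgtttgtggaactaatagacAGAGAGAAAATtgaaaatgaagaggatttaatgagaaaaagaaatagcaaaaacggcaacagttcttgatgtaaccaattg
The mig-5 run, from a promoter, had 41.7% GC, the mig-14 run 39.7% and the bar-1 run 37.1%, with cam-1 highest at 45.0%. The mig-14 run held 9 copies of the hexamer, counting both strands. CGGCAA also occurred in the mig-5 and bar-1 runs, outside their capitals. At least 9 copies occurred in 0.11% of all 30000 pooled regions over the same length, and at least 1 copy in 7.58%. This hexamer was picked after the sequence had been seen, so its count is a description of this stretch. How reads from such repeated sequence were placed, and whether that bears on the mig-14 signal, was not tested.

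Optimal VAB-15 peaks lay at 2 of the 10 genes, the Dishevelled gene mig-5 and the Frizzled gene lin-17. Among all 19973 protein-coding genes, 9.28% had an optimal peak in a window drawn the same way. Windows of the 10 genes were longer, with a median of 11.3 kb against 7.03 kb over all protein-coding genes. Per length, the 10 windows held 1.69 optimal peaks per 100 kb (exact Poisson 95% interval 0.204 to 6.1, counting error only), against 1.02 over all windows. That interval includes the value over all windows, so 2 peaks cannot show a difference from it. The 8 other members held no optimal peak. Counting only peaks whose nearest protein-coding transcription start site (TSS) was that of the gene itself, the same count of 2 of 10 was found, against 4.19% of all protein-coding genes. A difference from that share was not tested, and window length and the number of TSSs per gene, 4 at lin-17, were not corrected for. At mig-5 its own TSS lay 181 bp away and that of the neighbouring gene cct-1 239 bp.

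The peak at mig-5 (WBGene00003241, chromosome II 8182323 to 8185023, minus strand) was the strongest among the members. It spanned 8185128 to 8185269 and ranked 61 of 30000 in the pooled list with a signal of 282.6, a value of the authors that ranks regions within a list. The matching region ranked 66 in replicate 1 with a signal of 195.2, and 119 in replicate 2 with a signal of 73.6. Signals are not on 1 scale across lists, since the median over a whole list was 30.21 in replicate 1 and 17.19 in replicate 2, so ranks are compared here. Where a pooled region overlapped several regions of a replicate, the one with the nearest summit was taken as its match. Both replicates placed the mig-5 region well inside their 990 strongest, and their summits fell 10 bp and 8 bp from the pooled summit. The summit lay 181 bp upstream of the TSS of mig-5 and also 239 bp upstream of the TSS of cct-1, which encodes a subunit of the CCT chaperonin and is transcribed the other way. The peak therefore sits in the space between a pair of divergent genes, and the lists do not assign it to either.

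A weaker region beside it differed between the replicates. Its pooled summit lay 16 bp downstream of the cct-1 TSS and 436 bp upstream of mig-5, with a signal of 58.35 and rank 5911. Replicate 2 had a summit at the same base, ranked 801 with a signal of 41.5, whereas no region of replicate 1 overlapped it. The remaining regions of the mig-5 window ranked 20860, in a coding exon of cct-1, and 27357, in exon 7 of 9 of mig-5.

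lin-17 (WBGene00003006, chromosome I 2706883 to 2717549, plus strand), which encodes a Frizzled receptor, held the other optimal peak. It spanned 2710533 to 2710908, in intron 4 of 9 of transcript Y71F9B.5a.2, with a signal of 130.5 and rank 633. Its rank was 865 in replicate 1 with a signal of 81.9, and 517 in replicate 2 with a signal of 48.33. Both replicates thus held it among their 990 strongest regions, and their summits fell 0 bp and 11 bp from the pooled one. The lowest signal in the optimal set was 108.2, so the lin-17 peak lay nearer to that floor than the mig-5 peak. lin-17 has 4 annotated TSSs, and the summit lay 768 bp downstream of an internal one, so the peak is intronic in one transcript form and downstream of the start of another. Ranked by the deposited -log10 q-value in place of signal, it stood at 1348.

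Weaker regions were spread along lin-17. Of the 9 pooled regions in its window, 8 lay in the gene body and 1 upstream. A region overlapping the flank of the optimal peak ranked 3039 with a signal of 73.49, and it held the hexamer TAATTG. Another, ranked 3295 with a signal of 71.45, lay 103 bp upstream of an internal lin-17 TSS and ranked 1882 in replicate 1 but 7360 in replicate 2. The region 1075 bp upstream of the gene's start ranked 4453, and 2735 in replicate 1, with no overlapping region in replicate 2. The other 5 ranked from 12442 to 20868.

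**Figure D1:**
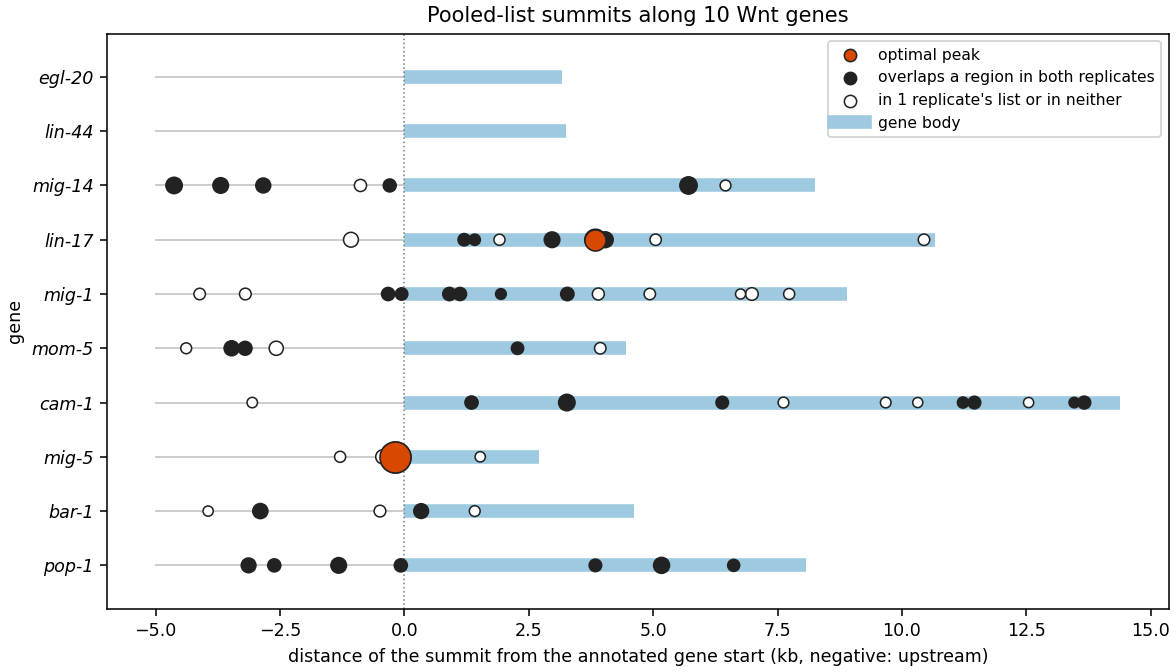
Summits of the pooled list along the 10 genes: the x axis gives the distance from the annotated gene start in kb (negative is upstream), each row is a gene, blue bars are gene bodies and grey lines the 5000 bp upstream, and circle area is proportional to the authors' signal. Orange circles are the 2 optimal peaks, at mig-5 and lin-17, filled circles overlap a region in both replicates, and open circles in 1 or neither; egl-20 and lin-44 hold no circle.

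Among the 10 genes, the Wnt ligand genes were the emptiest. egl-20 (WBGene00001188, chromosome IV 9812357 to 9815532), the ligand of the posterior body that guides Q descendants, had 0 regions in the pooled list and 0 in replicate 2. Replicate 1 listed 1 region in its window, at rank 20774 with a signal of 26.22, 3540 bp upstream in a coding exon of a neighbouring gene whose nearest TSS was that of catp-6. lin-44 (WBGene00003029, chromosome I 4126056 to 4129310), a ligand made in the tail, likewise had 0 pooled regions and 0 in replicate 1. Replicate 2 listed 1 region 661 bp upstream of lin-44, at rank 26541 with a signal of 13.29, close to the lowest signal of that list, 12.42. Neither region was seen in both replicates. Over all protein-coding genes, 74.7% had at least 1 pooled region in the window, against 8 of these 10. The windows of egl-20 (8.176 kb) and lin-44 (8.255 kb) were among the shorter ones of the members. The shortest, that of mig-5 (7.701 kb), held 4 pooled regions, and whether length bears on the empty windows was not tested. A list that ends at a preset number of regions cannot show that binding is absent.

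mig-14 (WBGene00003246, chromosome II 13741738 to 13749983, plus strand), the Wntless gene needed in Wnt-producing cells, held the strongest region outside the optimal set. That region, the one with the repeated hexamer, lay in intron 7 of 8 with a signal of 88.12 and ranked 1767. It ranked 1521 in replicate 1 (signal 66.97) and 2073 in replicate 2 (signal 31.5), with summits 51 bp and 98 bp away, and its deposited -log10 q-value was 2.15. In all, 3 of the 63 pooled regions had q at or under 0.01, this one and the 2 optimal peaks. The whole pooled list had 2161 of 30000 at that cut. Upstream of mig-14, 3 regions between 2838 and 4631 bp from its start ranked 2488, 3367 and 4306. They lay in intergenic sequence nearer to the TSS of R06B9.5 than to that of mig-14. The region ranked 2488 overlapped the replicate 1 region at rank 2084 and, in replicate 2, regions at ranks 3849 and 16867, of which the weaker had the nearer summit. The one ranked 3367 overlapped replicate 1 regions at ranks 3161 and 20583, again with the nearer summit in the weaker, and the replicate 2 region at rank 2085, whose summit lay 280 bp away. Promoter regions 296 bp and 884 bp upstream of mig-14 ranked 9518 and 13572.

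The other Frizzled genes and the Ror gene showed many weak regions. mig-1 (WBGene00003238, chromosome I 948569 to 957456, minus strand) encodes a receptor through which EGL-20 acts on Q cells. The gene held 13 pooled regions, the most of the 10 genes, yet the best ranked only 8096 with a signal of 52.3. That region lay in intron 1 of 8, and 9 of the 13 lay in introns. In replicate 2 the best mig-1 region ranked 2334 with a signal of 30.46, in the same first intron. The pooled region there ranked 8407 and its replicate 1 match 24928, so the replicates did not share it as a strong region. Promoter regions 57 bp and 328 bp upstream of mig-1 ranked 12260 and 8684.

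mom-5 (WBGene00003397, chromosome I 9965574 to 9970037, plus strand), a Frizzled gene also used in the embryo, held 6 pooled regions, the best at rank 4076 with a signal of 66.33. By nearest summit that region ranked 6202 in replicate 1 and 12940 in replicate 2, where it also overlapped a region at rank 6535. It lay 3474 bp upstream of mom-5 but 123 bp upstream of the TSS of algn-10, and 5 of the 6 regions were nearer to the TSS of another gene than to that of mom-5. The remaining one, in exon 4 of 7 of mom-5, ranked 12944. No region lay in a promoter of mom-5 itself.

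cam-1 (WBGene00000289, chromosome II 9295915 to 9310304, minus strand) had the longest window, 19.39 kb, and held 12 pooled regions. Its strongest, shown above, lay in intron 1 of 8, 3264 bp downstream of the gene's start and 2187 bp upstream of an internal TSS, with a signal of 79.66 and rank 2409. It ranked 2770 in replicate 1 (signal 54.85) and 2962 in replicate 2 (signal 28.55), so the replicates placed it close together. The other 11 regions ranked from 8722 to 29379, of which 10 lay in the gene body.

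Downstream in the pathway, bar-1 and pop-1 held mid-ranked regions. bar-1 (WBGene00000238, chromosome X 7166005 to 7170625, minus strand), the beta-catenin of canonical signalling in Q cells, held 5 pooled regions. Its strongest lay 2897 bp upstream in intergenic sequence, with a signal of 67.05 and rank 3958, and ranked 6690 in replicate 1 (signal 40.74) and 5334 in replicate 2 (signal 24.15). A promoter region of bar-1, 492 bp upstream, ranked 16115 in the pooled list. Replicate 2 ranked its counterpart 1993 with a signal of 31.87, its best for bar-1, and replicate 1 had no overlapping region. An intronic region 336 bp downstream of the start went the other way, with rank 4014 in replicate 1 and 23817 in replicate 2.

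pop-1 (WBGene00004077, chromosome I 2822243 to 2830311, minus strand), the only TCF gene of the worm, had 7 pooled regions, and all 7 overlapped a region in each replicate. The strongest lay in exon 3 of 4, in coding sequence, with a signal of 75.02 and rank 2867, against 3895 in replicate 1 and 1968 in replicate 2. A region 1322 bp upstream, inside an annotated noncoding gene, ranked 3385 in the pooled list, 1224 in replicate 1 and 24397 in replicate 2, where the summit lay 288 bp away. The promoter region 73 bp upstream of pop-1 ranked 9010.

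**Figure D2:**
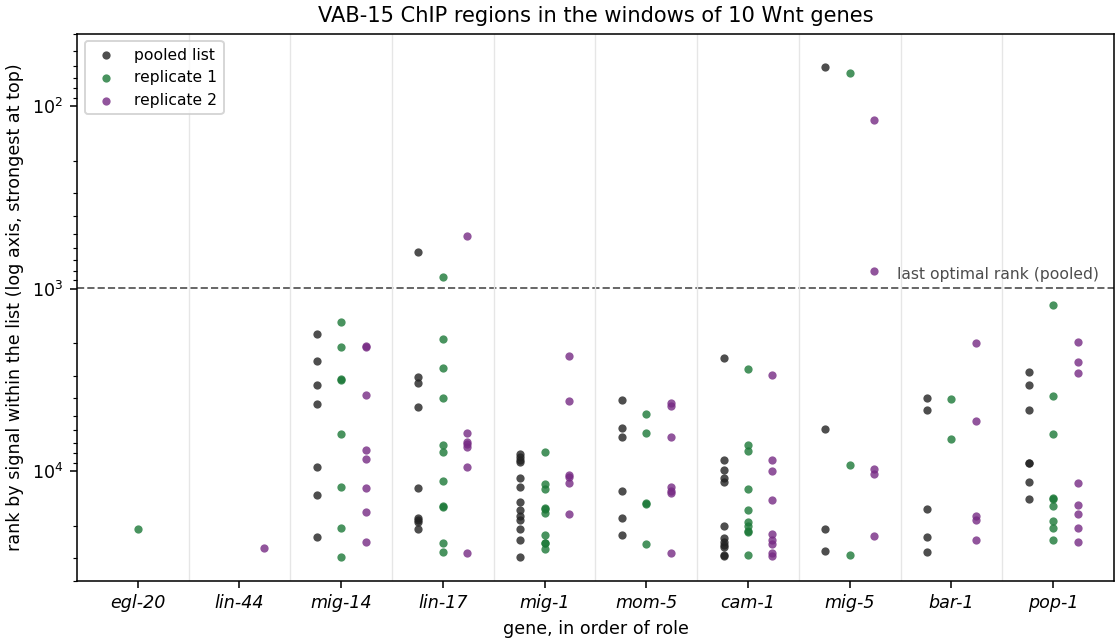
Rank by signal within each list (log axis, strongest at the top) of every region in the windows, by gene in order of role; black is the pooled list, green replicate 1 and purple replicate 2, and the dashed line marks rank 990, the last of the optimal set. Points above the line stand at lin-17 and mig-5 in each list, with a second mig-5 point, at rank 801, in replicate 2 alone.

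In every list, the regions above rank 990 lay at the same genes. The pooled list and the optimal set were made from both replicates, so this only describes the lists. Among the 990 strongest regions of replicate 1, mig-5 and lin-17 had 1 each, which is 2 of 10 genes against 9.23% of all protein-coding genes. Among those of replicate 2, the same genes had 3 regions, 2 of 10 genes against 8.62%. The order of the genes by best pooled rank was mig-5, lin-17, mig-14, cam-1, pop-1, bar-1, mom-5 and mig-1. Only the places of mig-5 and lin-17 at the head held in both replicates. In replicate 1 pop-1 (1224) preceded mig-14 (1521), and in replicate 2 pop-1 (1968), bar-1 (1993), mig-14 (2073) and mig-1 (2334) lay close together, so these neighbours are not separated beyond the difference between replicates.

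Over all 63 regions, 36 (57.1%) overlapped a region in both replicates, against 51.2% of the whole pooled list. Another 13 overlapped replicate 1 alone, 13 replicate 2 alone, and 1 neither. The strongest region of each of the 8 genes with any was among the 36. Strong regions mostly overlap both lists, as did 99.7% of the optimal set, and the share at like ranks was not computed. Overlap was counted from 1 shared base, and 6 of the 63 regions shared a replicate 1 region with another, as did 8 in replicate 2. Across the 36, ranks of the nearest-summit matches gave a Spearman rho of 0.114, against 0.348 across 15356 regions of the whole list. This depends on the match: 17 of the 63 regions overlapped several regions of a replicate, and with the strongest overlapping region, a choice made after seeing the data, rho was 0.313 against 0.411. Regions share the same libraries, and both lists feed the pooled one, so these values only describe the lists. Under either match, replicate 1 gave the better rank in 18 of the 36 and replicate 2 in 18.

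**Figure D3:**
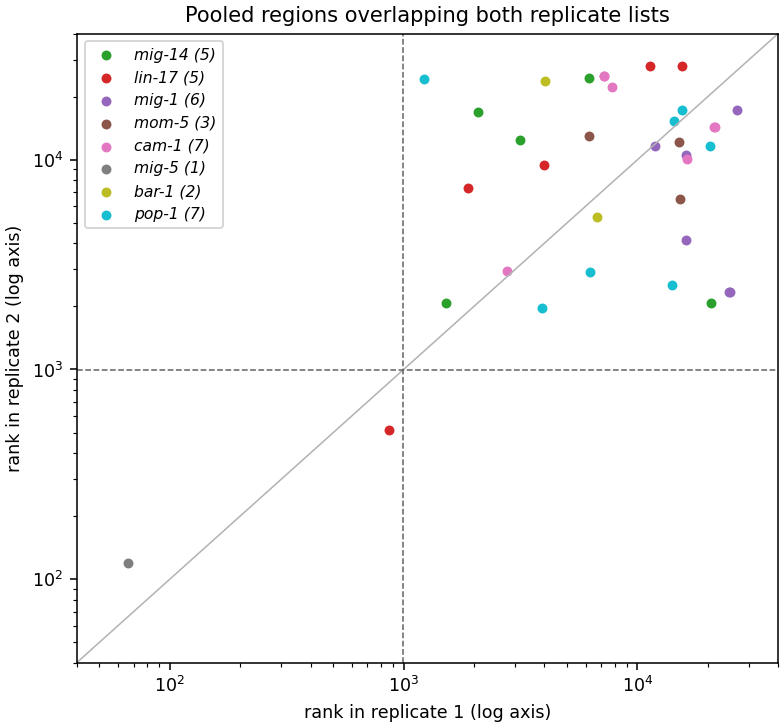
Rank in replicate 1 (x) and replicate 2 (y), both on log axes, of the nearest-summit matches of the 36 pooled regions that overlap a region in each replicate, coloured by gene with the number of regions in brackets; the grey line marks equal ranks and the dashed lines rank 990. The mig-5 and lin-17 peaks stand in the corner of strong ranks in both replicates, and the other regions scatter on either side of the line.

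The rule fixed where a summit could lie, inside a gene or within 5000 bp upstream of its start. The shares by position given here therefore partly follow from the rule, whereas the whole list was not so restricted. Sequence was not part of the rule. Of the 63, 25 lay upstream of their gene's start and 38 in its body, and 10 lay within 1000 bp of the start on either side. By annotation class, 23 (36.5%) lay in introns, against 22.2% of the whole list, and 14 (22.2%) in promoters, defined as 1 to 1000 bp upstream of any protein-coding TSS, against 27.4%. Coding exons held 12 of the 63, against 28.6% of the whole list, and intergenic sequence 12, against 16.1%. In the optimal set 63.9% were in promoters, and of the 2 optimal peaks here 1 was. The nearest TSS was that of the listed gene for 45 of the 63 and of a neighbour for 18.

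The 10 windows held 53.2 pooled regions per 100 kb, against 31.0 over the windows of all protein-coding genes. Median rank was 11532 for the 63 regions and 15000 for the whole list, and median signal was 46.07 and 41.6. The best rank of a gene, over genes with any region, had a median of 2638 for the members and 7389 over all protein-coding genes. The windows of the 10 genes were longer, and best ranks were not corrected for this. Whether window length bears on the difference was not tested. Median GC content within 50 bp of the summit was 41.6% in the 63 regions, 40.6% in the whole list and 46.5% in the optimal set.

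TAATTG, a core sequence bound by homeodomain proteins of the Msx kind, was searched for near these summits. On either strand it lay within 50 bp of 2 of the 63 summits (3.17%), against 7.09% of the 30000 and 10.4% of the optimal peaks. The 2 were the lin-17 region ranked 3039 and the mom-5 region ranked 22330, and neither optimal peak had it. CTTTGAT, a core of TCF sites, likewise lay near 2 (3.17%), at mig-5 and bar-1, against 1.87% of the whole list. It was found in the mig-5 region ranked 27357, in a coding exon, and in the bar-1 promoter region ranked 16115. Counts of 2 are too small to show a difference from the whole list, and none was tested. Neither motif contains the other on either strand, and a missing match says only that the letters are not in that stretch.

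Of 30 other genes of the pathway, 4 held an optimal peak, again to be read against 9.28% of all protein-coding genes. mom-1, which encodes the Porcupine enzyme that lipidates Wnt proteins, had the strongest, in intron 7 of 7 with a signal of 199.1 and rank 193 (245 in replicate 1 and 78 in replicate 2). Its summit lay 3453 bp from the TSS of mom-1 and 3377 bp from that of cest-16. mab-5, the Hox target of EGL-20 signalling, had a peak 824 bp upstream of its TSS with a signal of 133.7 and rank 602 (858 in replicate 1 and 363 in replicate 2). lit-1, the Nemo-like kinase that acts on POP-1, had one in intron 2 of 10 with rank 706. It matched rank 637 in replicate 1 and, by nearest summit, 3453 in replicate 2, where it also overlapped a region at rank 401. The peak counted for vps-29, a retromer subunit gene, ranked 804, with 670 in replicate 1 and 6870 by nearest summit in replicate 2, where the strongest overlapping region ranked 4375. It lay 117 bp upstream of ZK1128.1 and 1819 bp from vps-29.

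By role, optimal peaks lay at 2 of 6 secretion genes, 1 of 3 kinases and adaptors that act on POP-1, and 1 of 2 Hox genes. Both secretion peaks were nearer to the TSS of another gene, so by nearest TSS the secretion count was 0. Optimal peaks lay at none of the 3 further Wnt ligands, 6 receptors and surface factors, 2 Dishevelled genes, 5 genes of the destruction complex or 3 beta-catenins. The further ligands held weak regions, whereas egl-20 and lin-44 held 0 in the pooled list. cwn-1 held 4 pooled regions (best rank 14431), mom-2 held 2 (16221) and cwn-2 held 1 (17045). Empty windows were not limited to ligands, since the surface factor gene sfrp-1 had 0 regions in the pooled list and in each replicate. The Dishevelled gene dsh-1 had its best region at 4359, and dsh-2 had no pooled region, unlike mig-5. The members' median of 2638 served only to choose further genes to name. The share of all protein-coding genes that rank better than it was not computed. A further 8 genes ranked better: wrm-1 (1180), snx-3 (1183), kin-19 (1407), axl-1 (1990), lin-39 (2289), gsk-3 (2295), mtm-6 (2455) and hmp-2 (2553). Of these, axl-1 had no region in replicate 2, and lin-39, a Hox gene of the mid-body, stood at 1295 in replicate 1 and 19762 in replicate 2. The 30 windows held 53.4 regions and 1.28 optimal peaks per 100 kb, close to the 53.2 and 1.69 of the 10 genes.

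**Figure D4:**
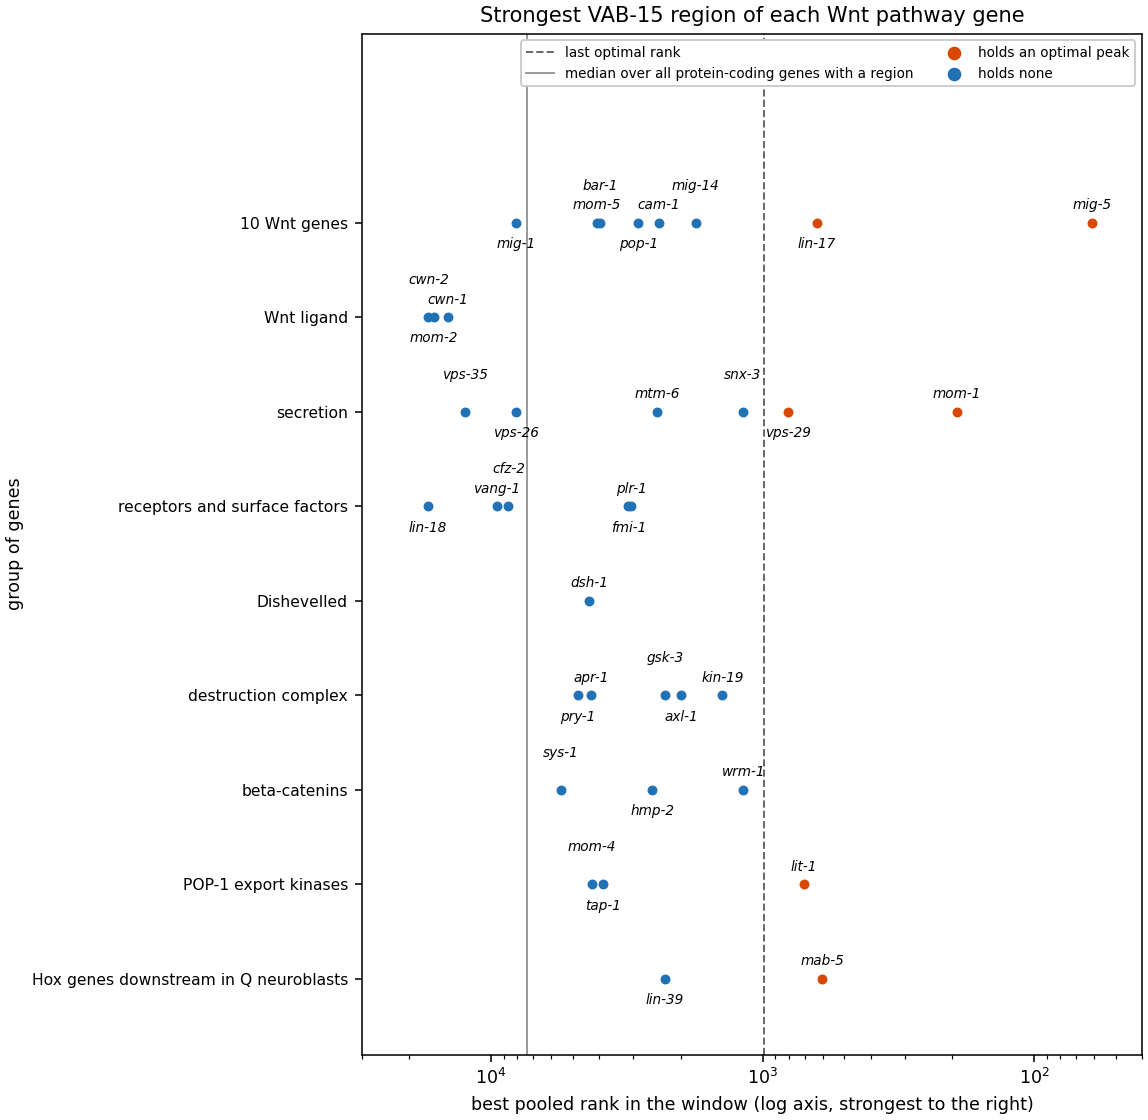
Best pooled rank in the window of each gene (log axis, strongest to the right) for the 10 genes and, by role, for the 30 others; genes without a pooled region are left out. Orange marks genes with an optimal peak, blue those without, the dashed line is rank 990 and the grey line the median over all protein-coding genes with a region, 7389; the Wnt ligand genes lie to the left of that median.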

How the data were processed

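VAB-15 ChIP-seq was available as narrowPeak lists on ce11 for each of 2 biological replicates (numbered as in the labels), for the pooled data and for the optimal set. Per the deposited notes, the lists derive from ChIP alignments and a control alignment. No aligner, peak caller or threshold is named there (not given in the sources used here). The authors' signal value per region served only to rank regions within a list, and the deposited -log10 q-value only as an alternative ranking and at q of 0.01. All 990 optimal peaks matched pooled regions exactly and were its 990 highest by signal. Lists on ce10 were not used here.

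Genes came from Ensembl release 115 (WBcel235, the assembly of ce11), sequence from the RefSeq genome of that assembly; 99.8% of plus-strand coding starts read ATG in it. Coordinates count from 1. Summits were assigned with Python 3.11.15, pandas 2.3.3, numpy 2.4.6 and scipy 1.17.1, and assignment, matching and classes were checked on planted positions. Each summit got 1 class, with promoters taken before UTRs and coding exons, these before introns, and noncoding genes before intergenic sequence. Overlap with replicate regions needed 1 shared base, and the overlapping region with the nearest summit was the match.

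The members and lists were chosen with earlier results of these data known. All members are named. Other pathway genes are named when they hold an optimal peak or rank better than the members' median. Further ones, chosen after their values were seen, are the ligands, dsh-1, dsh-2 and sfrp-1. With 1 group no test between groups was run. Alternatives changed window reach, peak set, replicate, overlap and motif window.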

Additional observations from a re-analysis of the deposited data

How the results depend on the processing

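The count of 2 members with an optimal peak was also 2 with the shorter and longer upstream reaches tried and with the nearest-TSS rule, and 3 with all regions at q of 0.01 or under, where mig-14 joins. It was 1 with the gene body only, since the mig-5 peak lies upstream, and 1 with optimal peaks above the median signal of that set, 143.5. Using the 990 strongest regions of 1 replicate gave 2 members without either replicate, and 2 to 3 peaks in their windows. The number of optimal peaks was likewise 1 with the gene body only and 1 in the stricter set. Pooled regions in the windows numbered 63, and 38 with the gene body only, which takes fewer bases, 46 with a reach of 1000 bp, 84 with the longest reach and 45 under the nearest-TSS rule. Among the other pathway genes the count of 4 was 2 with the gene body only, 2 under the nearest-TSS rule and 1 in the stricter set. It was 8 at q of 0.01 or under, and 4 to 5 when a replicate was left out. Over all protein-coding genes the share was 4.19% under the nearest-TSS rule. It was 9.23% with the 990 strongest regions of replicate 1 and 8.62% with those of replicate 2. For the other alternatives this share was not computed, so those counts of genes have no background. The q cut takes 2161 pooled regions in place of 990. Regions matched in both replicates numbered 36, 24 with summits within 100 bp and 28 with an overlap of at least 50% of the pooled region. Taking the strongest overlapping replicate region as the match, chosen after seeing the data, changed a replicate rank for 11 of the 63 regions. TAATTG was near 1 summit in windows of 51 bp (1.59%, against 3.5% of the whole list). Within 100 bp on either side it was near 5 (7.94%, against 13.5%), and within 50 bp near 2 (3.17%, against 7.09%). Wider windows hold more letters. By -log10 q the lin-17 peak ranked 1348, and the mig-5 peak was 1 of 561 regions tied for the top. The cause for lin-17 was not tested. Depth is unknown, and with 2 replicates of 1 group the spread between them is known only from their ranks.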
